A study of Mus musculus with 15 samples.

Results

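The genes described here encode the scaffold at the edges and the centre of the sarcomere, the contractile unit of striated muscle. They were chosen as a fixed list of 39 gene symbols for the Z-disc, the giant protein titin, the ends of the thin filaments and the M-band. The symbols were matched to the gene identifiers of the deposited count table through the GENCODE M21 annotation of the mouse genome (GRCm38). All 39 were found among the 30672 genes of the table, and all 39 passed the filter on low counts that left 15533 genes for testing. No rule on measured values set the list, but it was chosen with earlier results of these data known.

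The Z-disc anchors actin filaments of neighbouring sarcomeres through alpha-actinin and its partners, and the M-band cross-links myosin filaments in the middle. Titin spans from one to the other and carries elastic force, while ankyrin repeat and LIM domain proteins bound to titin or the Z-disc are known as sensors of mechanical load. Several of these proteins exist as paired isoforms used in fast or slow, or in young or adult, fibres.

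The libraries were made from the tibialis anterior (TA), a fast muscle of the lower leg, of male 129Pas mice aged 7 weeks. Mtm1 lies on the X chromosome and encodes myotubularin, a lipid phosphatase whose loss causes myotubular myopathy. The groups were WT mice with no treatment named (WT, n = 4), WT mice given tamoxifen (WT + TAM, n = 4), mice without functional Mtm1 and with no treatment named (Mtm1-/y, n = 4) and such mice given tamoxifen (Mtm1-/y + TAM, n = 3). Tamoxifen is a modulator of oestrogen receptors, and its dose and regimen, like the making of the Mtm1 allele, were not given in the sources used here. Replicates carried numbers only, so p-values measure the spread between these samples. The numbers did not pair libraries of different groups.

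Totals ranged from 18042558 to 45823277 counts per library. Mtm1 itself was at 14.9 to 15.6 CPM (counts scaled to a common effective library size) in WT and 13.5 to 17.7 CPM in WT + TAM, against 2.91 to 3.63 CPM in Mtm1-/y and 3.04 to 3.71 CPM in Mtm1-/y + TAM. Markers of skeletal muscle were high in all libraries, and their sums by group are given with the other markers. In bulk tissue, fewer fibres of a type and less RNA per fibre cannot be told apart. A pair of libraries stood apart from their groups. Over log2 CPM of all tested genes, WT + TAM replicate 1 and Mtm1-/y replicate 1 each had a mean correlation of 0.965 with the rest of their group, against 0.977 to 0.989 for the other libraries. WT + TAM replicate 1 also held a sum of 1377 CPM over 8 slow fibre markers, against 68.3 to 123 CPM in the rest of its group. Its 5 fibroblast markers summed to 4596 CPM (857 to 1798 CPM in the rest) and its 4 cardiac muscle markers to 106 CPM (1.91 to 7.39 CPM in the rest). In Mtm1-/y replicate 1 the fibroblast markers summed to 351 CPM, against 965 to 1912 CPM in the rest of its group. Values without WT + TAM replicate 1 or Mtm1-/y replicate 1 are given beside many, but not all, results in which they stood out.

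The 39 genes together took 6.96% ± 0.219 (SD, n = 4) of all counts in WT, 7.15% ± 0.574 (n = 4) in WT + TAM, 7.35% ± 0.217 (n = 4) in Mtm1-/y and 7.48% ± 0.259 (n = 3) in Mtm1-/y + TAM. Ttn, the titin gene, alone held 1.22% to 1.47% of the counts in each WT library. Per kilobase of annotated exon, the highest WT levels were those of Actn3 (3791 ± 319 CPM per kb), Mybpc2 (2917 ± 495), Tcap (2607 ± 302) and Myoz1 (1399 ± 97.5), all SD with n = 4. The lowest were Fhl2 (0.539 ± 0.189 CPM per kb), Myom3 (3.09 ± 1.2), Pdlim1 (4.07 ± 0.678) and Ankrd1 (7.03 ± 1.92). The list thus covered a wide range of abundance, from the main fast fibre Z-disc and thick filament proteins to genes with only 18 to 44 counts per WT library, as for Fhl2.

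The first comparison asked which of these genes differed between Mtm1-/y and WT muscle. The strain sensor Ankrd1, the M-band gene Myom3, the thin filament gene Lmod2, the LIM protein gene Fhl2 and the Xin repeat gene Xirp1 rose most, by 3.51-fold to 9.16-fold. The thick filament gene Mybpc2, the titin-bound protease gene Capn3 and the strain sensor Ankrd23 fell most, by 1.78-fold to 1.93-fold. At an adjusted p under 0.05 (edgeR quasi-likelihood test, Benjamini-Hochberg over all tested genes), 19 of the 39 genes were called, 12 higher and 7 lower. This was 48.7% of the list, against 30.4% of all tested genes called, 15.5% higher and 14.9% lower. In 16 of the 39 genes the libraries did not overlap between the groups, 11 above and 5 below WT, against 30.5% of all tested genes. The median log2 fold change of the list was 0.21, and that of all tested genes was 0.00. With WT replicate 1 left out, 12 genes were called.

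**Figure D1:**
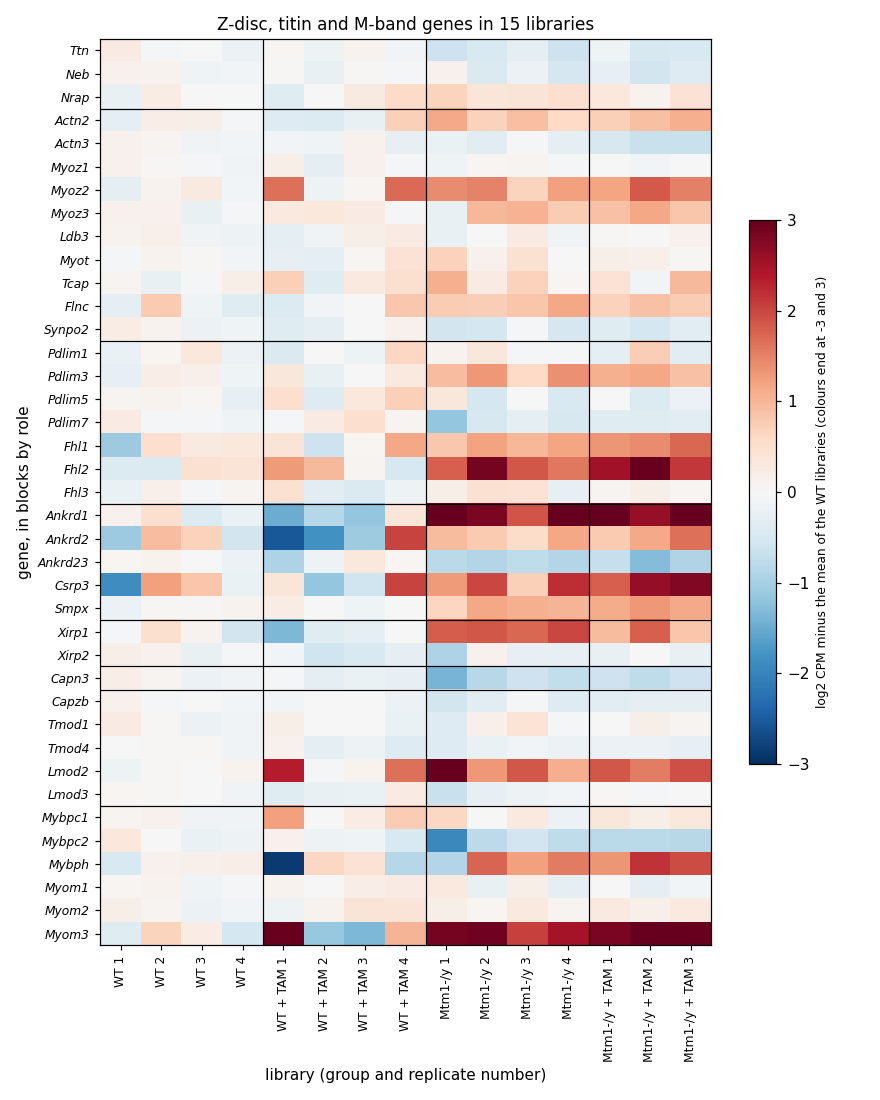
Each row is 1 of the 39 genes and each column 1 of the 15 libraries, and colour gives log2 CPM minus the mean of the WT libraries for that gene. Ankrd1, Xirp1, Fhl2, Smpx and Pdlim3 are higher in each of the 7 Mtm1-/y and Mtm1-/y + TAM libraries than in each of the 8 WT and WT + TAM libraries.

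Genomic windows of 250 bases before the annotated start were read from the RefSeq promoter table (GRCm38.p6), which held an entry for 30 of the 39 genes. They were searched on both strands for 5 motifs tied to muscle or stretch: MCAT (CATTCC), AP-1 (TGANTCA), the E-box (CANNTG), the MEF2 site and the CArG box. Counting 1 window per gene, the first in the table, a MEF2 site stood before 5 of the 30 genes (16.7%), namely Capn3, Myoz2, Synpo2, Ttn and Xirp2, and before 0.518% of the 27025 genes in the table. A CArG box stood in 4 of 30 (13.3%, against 1.40%), an MCAT in 5 of 30 (16.7%, against 12.6%), an E-box in 22 of 30 (73.3%, against 66.0%) and an AP-1 motif in 2 of 30 (6.67%, against 6.87%). Counting a match in any window of a gene, an MCAT stood before 7 of 30 (23.3%, against 14.4%), an E-box before 23 of 30 (76.7%, against 69.3%), and the other motifs before the same numbers of the 30 genes. These are matches of letters and no record of binding. Matches to this strict MEF2 pattern were found before genes that fell (Ttn, Capn3, Synpo2), a gene that rose (Myoz2) and Xirp2, which was not called. Looser forms of the site were not searched, so other genes of the list may hold one.

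Windows are shown for those genes described library by library which had a window with a motif other than an E-box and at most 30 bases in annotated exons, so that the motif can be seen in its context. They are read 5′ to 3′ on the strand of the gene, end at the base before the start, and carry the motif in capitals. The MEF2 sites are shown first, before titin (chr2:76982548-76982797, minus strand), Synpo2 (chr3:123236150-123236399, minus strand), Capn3 (chr2:120463343-120463592, plus strand, one of its windows in the table) and Myoz2 (chr3:123034988-123035237, minus strand).
Ttn: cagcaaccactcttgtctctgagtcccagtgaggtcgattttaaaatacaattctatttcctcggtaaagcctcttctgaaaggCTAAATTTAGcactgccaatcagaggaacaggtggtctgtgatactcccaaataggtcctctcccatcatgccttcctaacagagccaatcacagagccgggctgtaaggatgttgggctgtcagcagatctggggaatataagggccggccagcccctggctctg
Synpo2: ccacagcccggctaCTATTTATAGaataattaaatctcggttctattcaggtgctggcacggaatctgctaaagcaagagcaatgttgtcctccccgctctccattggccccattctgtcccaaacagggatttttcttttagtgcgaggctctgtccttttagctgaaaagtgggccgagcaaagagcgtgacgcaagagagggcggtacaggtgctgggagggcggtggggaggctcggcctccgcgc
Capn3: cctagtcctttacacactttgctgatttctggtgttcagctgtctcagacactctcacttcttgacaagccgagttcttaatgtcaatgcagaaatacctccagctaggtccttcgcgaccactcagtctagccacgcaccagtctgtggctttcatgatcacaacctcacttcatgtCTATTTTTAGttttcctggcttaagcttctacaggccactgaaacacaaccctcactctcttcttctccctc
Myoz2: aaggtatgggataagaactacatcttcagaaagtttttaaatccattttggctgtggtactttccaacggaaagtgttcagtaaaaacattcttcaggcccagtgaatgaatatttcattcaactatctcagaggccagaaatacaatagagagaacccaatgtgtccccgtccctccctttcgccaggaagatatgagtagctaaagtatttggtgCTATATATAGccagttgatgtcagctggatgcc
The site began 166 bases before the start in Ttn, 236 in Synpo2, 72 in Capn3 and 33 in Myoz2. The window of Fhl2 (chr1:43163962-43164211, minus strand, one of its windows in the table) held a CArG box from 31 bases before the start, and that of Mybpc2 (chr7:44524670-44524919, minus strand) an MCAT from 62 bases before the start, here on the opposite strand. A window of Ankrd23 (chr1:36535740-36535989, minus strand, not the first in the table) held an MCAT from 120 bases before the start.
Fhl2: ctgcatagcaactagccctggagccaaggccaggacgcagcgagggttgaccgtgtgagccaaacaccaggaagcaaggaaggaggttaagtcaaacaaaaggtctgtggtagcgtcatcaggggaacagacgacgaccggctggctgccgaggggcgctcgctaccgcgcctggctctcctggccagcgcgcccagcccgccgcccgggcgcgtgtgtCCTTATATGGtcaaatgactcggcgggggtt
Mybpc2: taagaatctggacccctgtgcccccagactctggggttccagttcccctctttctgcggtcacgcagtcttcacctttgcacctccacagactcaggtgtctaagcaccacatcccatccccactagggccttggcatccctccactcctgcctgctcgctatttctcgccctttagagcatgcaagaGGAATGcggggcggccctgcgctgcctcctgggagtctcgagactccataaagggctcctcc
Ankrd23: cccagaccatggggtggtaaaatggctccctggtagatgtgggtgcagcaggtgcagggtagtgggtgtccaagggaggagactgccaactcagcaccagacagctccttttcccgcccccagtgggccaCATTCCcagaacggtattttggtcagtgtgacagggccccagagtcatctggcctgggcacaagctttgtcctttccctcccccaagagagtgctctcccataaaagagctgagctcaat
The window of Ankrd1, the gene with the highest fold change, held 2 MCAT matches but lay wholly within annotated exons and is not printed.

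Among the strain sensors, 2 of 5 genes were higher, 1 was lower and 2 were not called. Ankrd1 (chr19:36111961-36120099) encodes cardiac ankyrin repeat protein, which binds titin and also enters the nucleus, and is scarce in resting fast muscle. Its levels were 21.7, 27.4, 14.9 and 17.1 CPM in the WT libraries and 366, 141, 73.4 and 163 CPM in the Mtm1-/y libraries. With tamoxifen they were 7.03, 10.9, 8.76 and 25.4 CPM in WT + TAM and 244, 120.3 and 170.5 CPM in Mtm1-/y + TAM. The lowest library without Mtm1 stood well above the highest library with it in both settings, and Mtm1-/y replicate 1 was the highest of all. The log2 fold change was 3.20 ± 0.52 (SE) in untreated mice (adjusted p = 7.00e-04) and 3.78 ± 0.55 in treated mice (adjusted p = 6.32e-04), and the untreated value was 2.63 (adjusted p = 0.00125) without Mtm1-/y replicate 1.

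Ankrd23 (chr1:36530188-36536883), a paralogue of Ankrd1 that binds the same part of titin, moved the other way. It was at 418, 435, 402 and 359 CPM in WT and at 231, 220.0, 236 and 219 CPM in Mtm1-/y, with no overlap. In WT + TAM it was at 212, 363, 502 and 421 CPM and in Mtm1-/y + TAM at 248, 162 and 217 CPM, where WT + TAM replicate 1 lay among the mutants. It changed by -0.84 ± 0.20 on the log2 scale (adjusted p = 0.00533) in untreated and -0.84 ± 0.22 (adjusted p = 0.0129) in treated mice, the latter -1.04 (adjusted p = 2.74e-04) without WT + TAM replicate 1. Of its 2697 exon bases, 2109 also belong to the predicted gene Gm42417 on the same strand, so its counts are uncertain.

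The third family member, Ankrd2, showed no call, with a log2 fold change of 0.65 ± 0.82, and its WT libraries alone ran from 32.4 to 130.2 CPM. Csrp3, the muscle LIM protein of the Z-disc, ran from 20.7 to 176 CPM in WT and from 124 to 351 CPM in Mtm1-/y (1.27 ± 0.72, adjusted p = 0.204). Smpx (chrX:157698910-157752591), a small muscle protein known to respond to stretch, gave the most uniform rise of the list. Its 4 WT libraries lay between 256 and 311 CPM, its 4 Mtm1-/y libraries between 454 and 645 CPM and its 3 Mtm1-/y + TAM libraries between 630.1 and 711 CPM. Its rise on the log2 scale was 0.98 ± 0.12 (adjusted p = 4.57e-05) untreated and 1.16 ± 0.13 (adjusted p = 3.57e-05) treated.

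Of the Xin repeat proteins, which bind actin and gather at sites of fibre repair and at muscle ends, Xirp1 was higher and Xirp2 was not called. Xirp1 (chr9:120013755-120023598) was at 181, 258, 197 and 125 CPM in WT and at 653, 672, 609.7 and 737 CPM in Mtm1-/y. With tamoxifen it was at 72.7, 144, 151 and 182 CPM in WT + TAM and at 358, 639 and 326 CPM in Mtm1-/y + TAM. The genotypes did not overlap, and replicates 1 and 3 of Mtm1-/y + TAM lay between the untreated groups. Its log2 fold change was 1.81 ± 0.28 (adjusted p = 4.03e-04) untreated and 1.68 ± 0.30 (adjusted p = 0.00166) treated. Xirp2 ranged from 1846 to 2447 CPM in WT and from 1138 to 2365 CPM in Mtm1-/y (-0.29 ± 0.18, adjusted p = 0.244).

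Of the 7 PDZ-LIM and four-and-a-half LIM genes, whose proteins join alpha-actinin to signalling enzymes, 2 were higher and 1 lower. Fhl2 (chr1:43123074-43196984), abundant in heart and scarce in adult fast muscle, was at 0.713, 0.711, 1.37 and 1.29 CPM in WT and at 3.56, 7.54, 3.72 and 3.07 CPM in Mtm1-/y. In WT + TAM it was at 2.45, 1.99, 1.04 and 0.686 CPM and in Mtm1-/y + TAM at 5.88, 8.68 and 4.43 CPM. The libraries of the genotypes did not overlap, and the level stayed low in all of them. Its log2 fold change was 2.13 ± 0.41 (adjusted p = 0.00148) untreated and 2.06 ± 0.42 (adjusted p = 0.00356) treated, and its window with a CArG box is shown above.

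Pdlim3 (actinin-associated LIM protein) rose from between 438 and 596 CPM in the 4 WT libraries to between 782 and 1333 CPM in the 4 Mtm1-/y libraries (1.07 ± 0.17, adjusted p = 4.30e-04). Pdlim7 (Enigma; chr13:55495795-55513676), which binds kinases through its LIM domains, was at 400.0, 326, 322 and 306 CPM in WT and at 149, 243, 277 and 242 CPM in Mtm1-/y. With tamoxifen it was at 323, 396, 481 and 357 CPM in WT + TAM, and in Mtm1-/y + TAM at 260.1, 262 and 267 CPM. All libraries without Mtm1 lay below all libraries with it, and Mtm1-/y replicate 1 was the lowest. On the log2 scale this was -0.57 ± 0.17 (adjusted p = 0.0165) untreated and -0.57 ± 0.18 (adjusted p = 0.0372) treated, and the untreated value was -0.42 (adjusted p = 0.0244) without Mtm1-/y replicate 1. Without WT replicate 1 the untreated call was lost (-0.48, adjusted p = 0.0561). Pdlim1, Pdlim5 and Fhl3 were not called, with log2 fold changes of 0.09, -0.13 and 0.23.

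Fhl1 stood just outside the threshold in untreated mice. It encodes a LIM-only protein of skeletal muscle and is itself mutated in reducing body myopathy. Its 4 WT libraries ran from 769 to 2332 CPM and its 4 Mtm1-/y libraries from 2887 to 3754 CPM, with no overlap (0.94 ± 0.34, adjusted p = 0.0526). In treated mice it was called (1.12 ± 0.37, adjusted p = 0.0451), from between 1064 and 3635 CPM to between 4121 and 5422 CPM, a call lost without WT + TAM replicate 1 (1.12, adjusted p = 0.0765).

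**Figure D2:**
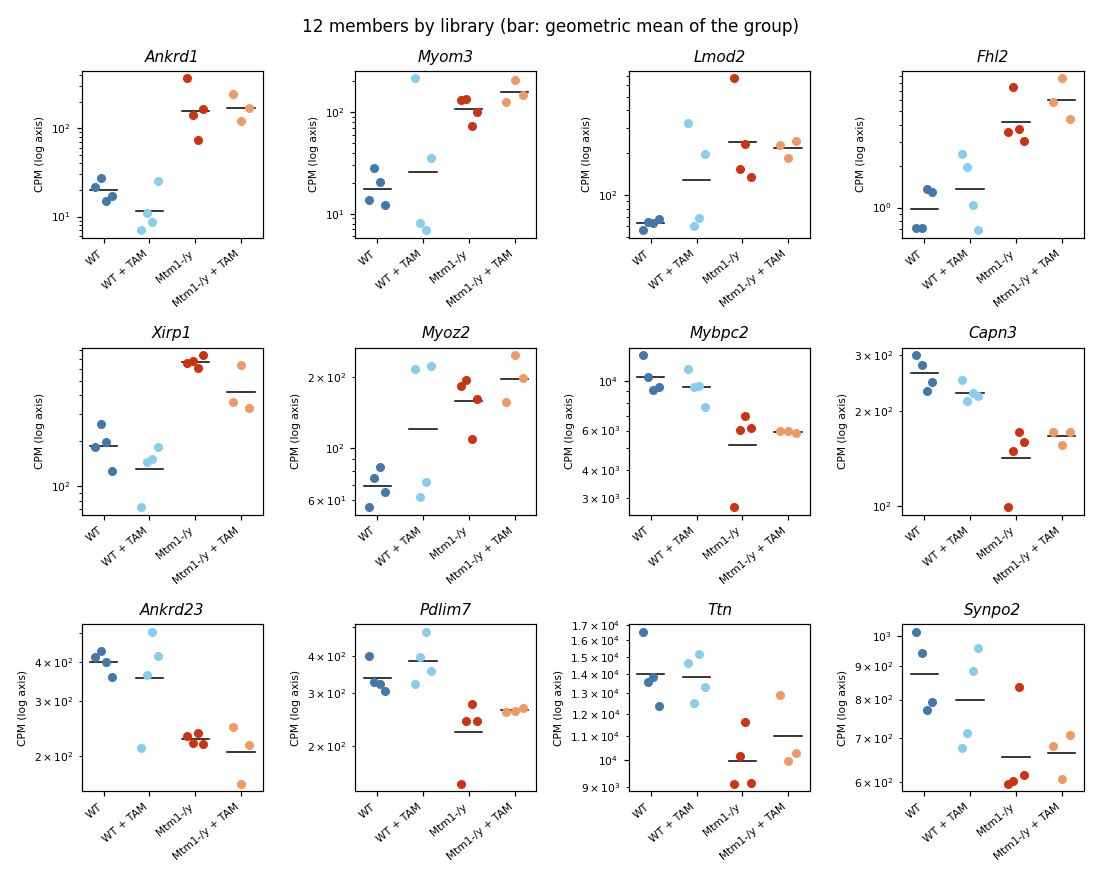
CPM on a log axis for the 12 genes described library by library, with 1 point per library and a bar at the geometric mean of each group (n = 4, 4, 4 and 3). Ankrd1, Fhl2 and Xirp1 lie above, and Capn3, Pdlim7 and Mybpc2 below, all libraries of the opposite genotype, while WT + TAM replicate 1 reaches or passes the mutant range for Myom3 (215 CPM) and Lmod2 (323 CPM).

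In the 3 large scaffolds the changes were small. Ttn (chr2:76703980-76982547) was at 16527, 13615, 13873 and 12389.6 CPM in WT and at 9129, 10177, 11637 and 9163 CPM in Mtm1-/y. Treated mice gave 14667, 12541, 15148 and 13312 CPM in WT + TAM and 12913, 9992 and 10291 CPM in Mtm1-/y + TAM. The untreated groups did not overlap, whereas Mtm1-/y + TAM replicate 1 lay within the WT + TAM range. Titin mRNA thus differed by -0.49 ± 0.13 on the log2 scale (adjusted p = 0.0113) untreated and by -0.33 ± 0.14 (adjusted p = 0.118) treated, and the interaction of genotype and tamoxifen was 0.16 ± 0.19 (adjusted p = 0.783). Counts per gene do not show which titin isoforms were made. Nebulin (Neb), the ruler along the thin filament, was not called (-0.23 ± 0.14), and Nrap, a nebulin relative of assembling myofibrils and muscle ends, was higher (0.47 ± 0.17, adjusted p = 0.0458), a call lost in 8 of 16 alternative fits.

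Capn3 (chr2:120456019-120504913) encodes calpain 3, a protease held on titin whose loss causes a limb-girdle dystrophy. It was at 299.7, 279.5, 231 and 246 CPM in WT and at 99.1, 149, 171 and 159 CPM in Mtm1-/y. With tamoxifen it was at 250.3, 214, 227 and 222 CPM in WT + TAM and at 171, 156 and 171 CPM in Mtm1-/y + TAM. All 7 libraries without Mtm1 lay below all 8 with it, with Mtm1-/y replicate 1 lowest. Capn3 differed by -0.87 ± 0.14 on the log2 scale (adjusted p = 4.01e-04) untreated and -0.46 ± 0.15 (adjusted p = 0.0429) treated. Without Mtm1-/y replicate 1 the untreated value was -0.73 (adjusted p = 1.47e-04), and without WT + TAM replicate 1 the treated call was lost (-0.42, adjusted p = 0.0758). The interaction of genotype and tamoxifen was 0.41 ± 0.20 and did not pass (adjusted p = 0.49). Of its exon bases, 386 are shared with Ganc on the same strand.

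The Z-disc core split into 4 genes that were higher, 1 that was lower and 5 that were not called. Myoz2 (chr3:123006206-123035015), the calsarcin of slow fibres and heart that holds calcineurin at the Z-disc, was at 56.2, 74.8, 83.5 and 65 CPM in WT and at 184, 195, 109.5 and 163 CPM in Mtm1-/y. In WT + TAM it was at 217, 62, 71.5 and 224 CPM and in Mtm1-/y + TAM at 157, 249 and 198 CPM. The untreated groups did not overlap, but replicates 1 and 4 of WT + TAM lay as high as the mutants. The log2 fold change was 1.22 ± 0.38 (adjusted p = 0.0274) untreated, a call that was lost in 8 of 16 alternative fits (adjusted p up to 0.0723), and 0.49 ± 0.40 (adjusted p = 0.429) treated, or 0.76 (adjusted p = 0.216) without WT + TAM replicate 1.

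Its paralogue Myoz3 was higher in both settings (0.71 ± 0.21, adjusted p = 0.0171, and 0.77 ± 0.22, adjusted p = 0.0238), although Mtm1-/y replicate 1, at 263 CPM, lay below the WT range of 264 to 339 CPM. The abundant fast fibre paralogue Myoz1 was not called and had a 95% interval from -0.25 to 0.23 on the log2 scale. Actn2, the alpha-actinin of all fibres, rose from between 1155 and 1624 CPM to between 2143 and 3121 CPM (0.83 ± 0.22, adjusted p = 0.0115). Actn3, the alpha-actinin of fast fibres only, was not called in untreated mice (-0.22 ± 0.12) and was lower in treated mice (-0.53 ± 0.13, adjusted p = 0.00875).

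Flnc, the filamin that marks myofibril damage, was called higher (0.81 ± 0.27, adjusted p = 0.0314), with WT replicate 2 at 2009 CPM within the Mtm1-/y range of 1966 to 2609 CPM, and lost its call in 5 of 16 alternative fits. Synpo2 (myopodin; chr3:123076519-123236149), a partner of filamin C, was at 1013, 943, 772 and 794 CPM in WT and at 596, 602, 835 and 615 CPM in Mtm1-/y. It was at 675, 711, 885 and 958 CPM in WT + TAM and at 679, 606 and 708 CPM in Mtm1-/y + TAM. Mtm1-/y replicate 3 lay inside the WT range, and the treated groups overlapped. Its log2 fold change was -0.41 ± 0.15 (adjusted p = 0.0433) untreated, a call lost in 9 of 16 alternative fits (adjusted p up to 0.127), and -0.28 ± 0.16 (adjusted p = 0.229) treated. Ldb3 (-0.02), Myot (0.35) and Tcap (0.56), which encode ZASP, myotilin and telethonin, were not called.

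At the thin filament ends, Lmod2 was higher, Capzb was lower and 3 genes were not called. Lmod2 (chr6:24597762-24605414) encodes leiomodin 2, which lengthens thin filaments at the pointed end and is best known in heart. It was at 56.2, 64.5, 63.5 and 67.4 CPM in WT and at 674, 154, 229.9 and 133 CPM in Mtm1-/y. In WT + TAM it was at 323, 60, 68.1 and 197 CPM and in Mtm1-/y + TAM at 227, 183 and 241 CPM. The WT libraries were tight, Mtm1-/y replicate 1 stood far above the rest, and WT + TAM replicate 1 passed all 3 treated mutants. Lmod2 rose by 2.24 ± 0.59 on the log2 scale (adjusted p = 0.0125) untreated, and by 1.45 (adjusted p = 0.0425) without Mtm1-/y replicate 1. In treated mice the difference was 0.42 ± 0.60 (adjusted p = 0.677), or 1.00 (adjusted p = 0.244) without WT + TAM replicate 1, and the interaction was -1.82 ± 0.84 (adjusted p = 0.471).

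Capzb, the capping protein that ties the barbed end of actin to the Z-disc, was lower (-0.32 ± 0.10, adjusted p = 0.0274), a call lost in 5 of 16 alternative fits. The pointed-end genes Tmod1 (0.04 ± 0.15), Tmod4 (-0.21 ± 0.11) and Lmod3 (-0.27 ± 0.14) were not called. In treated mice no gene of this group was called, with log2 fold changes from -0.24 to 0.42.

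In the thick filament and M-band, Myom3 was higher, Mybpc2 was lower and 4 genes were not called. Myom3 (chr4:135759715-135815564), the myomesin of slow and intermediate fibres, was at 13.6, 28, 20.6 and 12.3 CPM in WT and at 130.5, 134, 72.9 and 99.7 CPM in Mtm1-/y. In WT + TAM it was at 215, 8.05, 6.9 and 35.7 CPM and in Mtm1-/y + TAM at 127, 207 and 147 CPM. The untreated groups were far apart, and WT + TAM replicate 1, the library with the high slow fibre markers, held the highest level of all 15. The log2 fold change was 2.55 ± 0.88 (adjusted p = 0.0441) untreated, a call lost in 9 of 16 alternative fits with adjusted p up to 0.104. In treated mice it was 1.28 ± 0.89 (adjusted p = 0.345), and 3.25 (adjusted p = 0.00254) without WT + TAM replicate 1.

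Mybpc2 (chr7:44501699-44524656) encodes the fast form of myosin-binding protein C. It was at 13079, 10467, 9151 and 9444 CPM in WT and at 2726, 6009, 6954 and 6176 CPM in Mtm1-/y. It was at 11365, 9414, 9537 and 7648 CPM in WT + TAM and at 5951, 5962 and 5881 CPM in Mtm1-/y + TAM. No library without Mtm1 reached the lowest library with it, and Mtm1-/y replicate 1 was lowest by a wide margin. The log2 fold change was -0.95 ± 0.23 (adjusted p = 0.00565) untreated and -0.68 ± 0.25 (adjusted p = 0.0625) treated. Without Mtm1-/y replicate 1 the untreated value was -0.72 (adjusted p = 0.00224).

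The slow form Mybpc1 (0.21 ± 0.22) and the myomesins Myom1 (0.01 ± 0.14) and Myom2 (0.15 ± 0.13) were not called. Mybph, a smaller relative of myosin-binding protein C, ran from 147 to 234 CPM in WT and from 109.6 to 684 CPM in Mtm1-/y, where replicate 1 alone lay below WT (1.18 ± 0.63, adjusted p = 0.178). In treated mice the groups did not overlap (2.02 ± 0.68, adjusted p = 0.0533), and without WT + TAM replicate 1 it was called (1.66, adjusted p = 0.0498). Of its exon bases, 1162 are shared with Adora1 on the opposite strand.

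Among tamoxifen-treated mice the same question was asked with libraries that the untreated comparison did not use, although both rest on one estimate of the spread. The test called 12 of the 39 genes, 8 higher (Ankrd1, Fhl2, Xirp1, Smpx, Fhl1, Pdlim3, Actn2 and Myoz3) and 4 lower (Ankrd23, Pdlim7, Actn3 and Capn3). This was 30.8% of the list, against 20.1% of all tested genes, 10.6% higher and 9.46% lower. Libraries did not overlap in 14 genes, 8 above and 6 below, against 31.6% of all tested genes. The median log2 fold change of the list was 0.10, and that of all tested genes was -0.02. Leaving out replicate 2 of Mtm1-/y + TAM brought the calls down to 6. Ankrd1, Fhl2, Xirp1, Smpx, Pdlim3 and Actn3 were called in all 15 alternative fits, while Capn3 and Fhl1 lost their calls in 8 of 15, Pdlim7 in 5, Myoz3 in 4, Actn2 in 3 and Ankrd23 in 1.

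Both comparisons called the same 10 genes, 7 higher and 3 lower, which was 52.6% of the untreated calls and 83.3% of the treated calls. Another 9 were called in untreated mice only and 2, Actn3 and Fhl1, in treated mice only, but in no gene did the interaction test pass. The log2 fold changes of all 19 genes called in untreated mice had the same sign in treated mice. Matching shares over all tested genes were not computed, so overlap and shared sign cannot be taken as traits of the list.

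**Figure D3:**
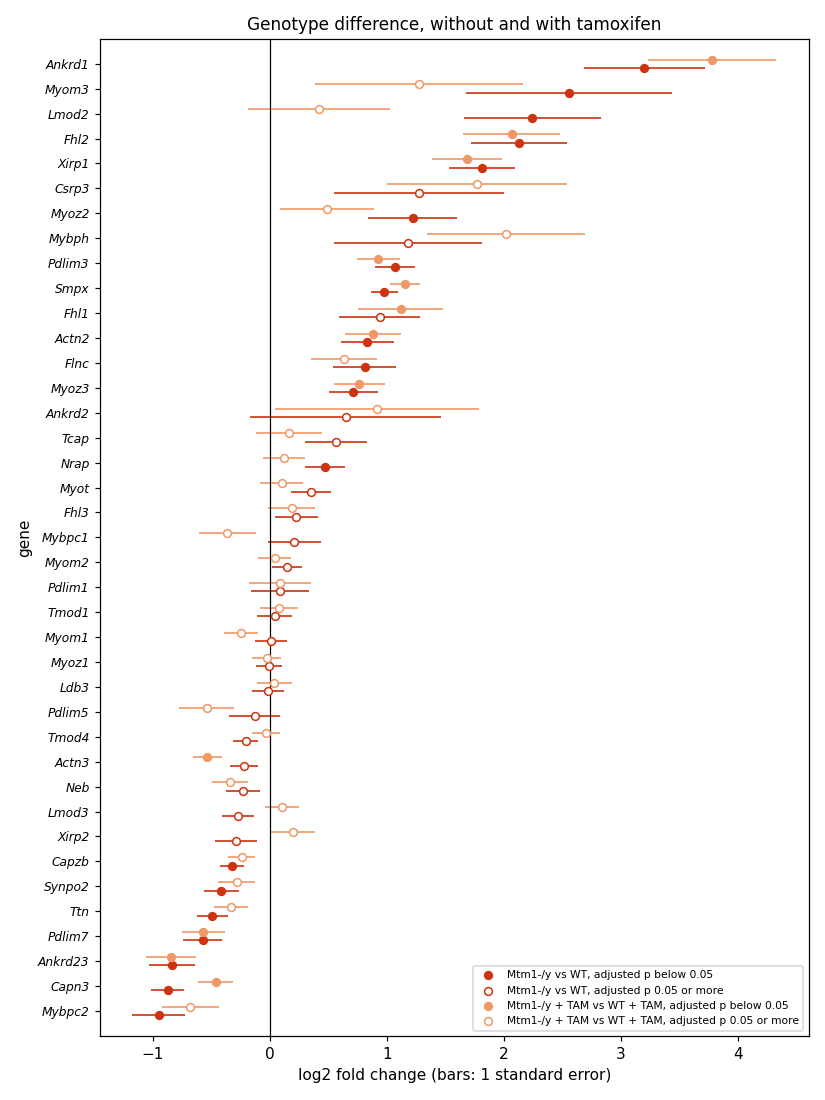
Log2 fold changes of the 39 genes for Mtm1-/y against WT and for Mtm1-/y + TAM against WT + TAM. Bars show the standard error, genes are ordered by the untreated value, and filled symbols have an adjusted p under 0.05. The 19 genes called in untreated mice keep their sign in treated mice, and the bars of Myom3, Lmod2, Ankrd2 and Csrp3 are wide.

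Whether tamoxifen moved these genes was asked within each genotype. In Mtm1-/y + TAM against Mtm1-/y, edgeR called 0 of the 39 genes, against 0.0129% of all tested genes. At an unadjusted p under 0.05 it gave 1 gene, Actn3, which was at 6858 to 7865 CPM with and 8731 to 10484 CPM without tamoxifen (-0.39 ± 0.13, adjusted p = 0.855). DESeq2 called 0 and had 2 at an unadjusted p under 0.05, and limma-voom called 0 and had 1. Libraries did not overlap in 3 genes, with Fhl1 and Lmod3 above and Actn3 below the untreated mutants, against 5.71% of all tested genes. The log2 differences ran from -0.60 for Xirp1 to 0.79 for Csrp3. The 95% intervals of 29 genes lay within a 2-fold change either way, and those of Fhl2, Fhl1, Ankrd1, Ankrd2, Myoz2, Lmod2, Csrp3, Myom3, Mybph and Xirp1 did not.

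In WT + TAM against WT, edgeR again called 0 of 39, against 0.309% of all tested genes, and the libraries overlapped in all 39, against 8.08% of all tested genes without overlap. At an unadjusted p under 0.05 it gave 3 genes, Lmod2 (1.36), Mybpc1 (0.63) and Myoz2 (1.04), while DESeq2 called 0 with 4 and limma-voom called 0 with 1. Without WT + TAM replicate 1 these log2 differences were 0.78, 0.36 and 0.77, and that of Myom3 went from 1.83 to -0.14. The 95% intervals lay within a 2-fold change for 29 genes here too.

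The interaction, the difference between the tamoxifen effects in the genotypes, called 0 of 39 genes and 0% of all tested genes by edgeR, with 0 members at an unadjusted p under 0.05. DESeq2 called 0 with 2 (Actn3 and Lmod2), and limma-voom called 0 with 0. The smallest adjusted p was 0.471, for Lmod2.

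**Figure D4:**
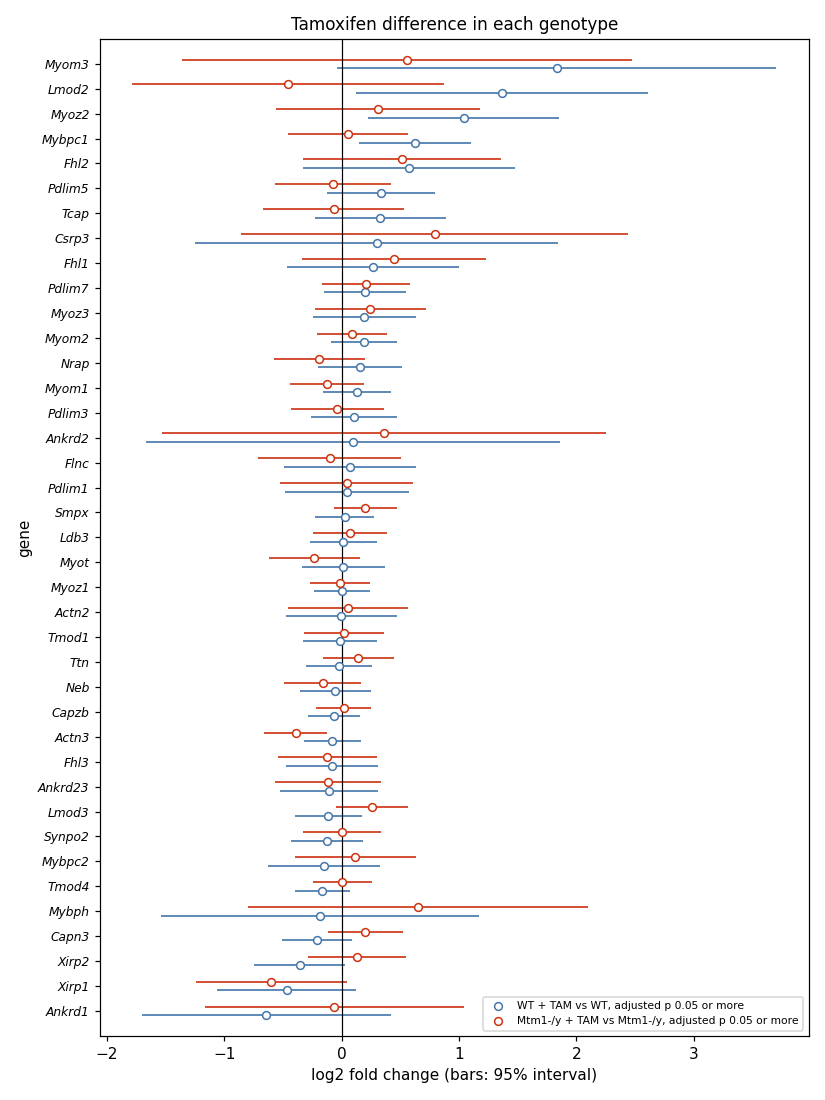
Log2 fold changes with 95% intervals for the 39 genes for tamoxifen within Mtm1-/y and within WT. The intervals of 29 genes in each genotype lie within a 2-fold change either way, those of Myom3 and Ankrd2 among others do not, and no gene has an adjusted p under 0.05.

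Levels per kilobase within paralogue pairs, chosen after their values were seen, are given only as a description of the mRNA balance within each pair. Ankrd1 relative to Ankrd23 went from 0.0346 to 0.0589 across WT libraries to 0.291 to 1.48 across Mtm1-/y libraries, and was 0.693 to 0.920 in Mtm1-/y + TAM. Because Ankrd23 shares 2109 exon bases with Gm42417 on the same strand, the size of this ratio is uncertain. Xirp1 relative to Xirp2 went from 0.124 to 0.225 in WT to 0.583 to 1.18 in Mtm1-/y, and was 0.36 to 0.611 in Mtm1-/y + TAM. Pdlim3 relative to Pdlim7 went from 1.03 to 1.72 in WT to 2.66 to 6.23 in Mtm1-/y, and was 3.38 to 4.13 in Mtm1-/y + TAM. In each of these pairs the libraries with and without Mtm1 did not overlap.

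Other pairs set slow or shared against fast fibre forms. Actn2 relative to Actn3 was 0.0740 to 0.121 in WT, 0.0782 to 0.194 in WT + TAM, 0.182 to 0.25 in Mtm1-/y and 0.226 to 0.329 in Mtm1-/y + TAM. Mybpc1 relative to Mybpc2 was 0.176 to 0.229 in WT, 0.233 to 0.482 in WT + TAM, 0.315 to 1.24 in Mtm1-/y and 0.411 to 0.461 in Mtm1-/y + TAM. The 1.24 was Mtm1-/y replicate 1, and the rest of its group reached 0.385. Myom3 relative to Myom2 was 0.00477 to 0.0104 in WT, 0.00208 to 0.0935 in WT + TAM, 0.0233 to 0.0505 in Mtm1-/y and 0.0409 to 0.0738 in Mtm1-/y + TAM. The 0.0935 was WT + TAM replicate 1, and the rest of its group reached 0.0107, below all Mtm1-/y + TAM libraries. In all 3 of these pairs the untreated groups did not overlap. The treated groups overlapped for both Mybpc1 relative to Mybpc2 and Myom3 relative to Myom2 but not for Actn2 relative to Actn3. Further pairs, not drawn, were computed in the same way. Myoz3 relative to Myoz1 overlapped untreated (0.0573 to 0.069 in WT, 0.0604 to 0.125 in Mtm1-/y) but not treated. Myoz2 relative to Myoz1 and Lmod2 relative to Lmod3 overlapped treated but not untreated. Ankrd1 relative to Ankrd2 overlapped in neither setting.

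**Figure D5:**
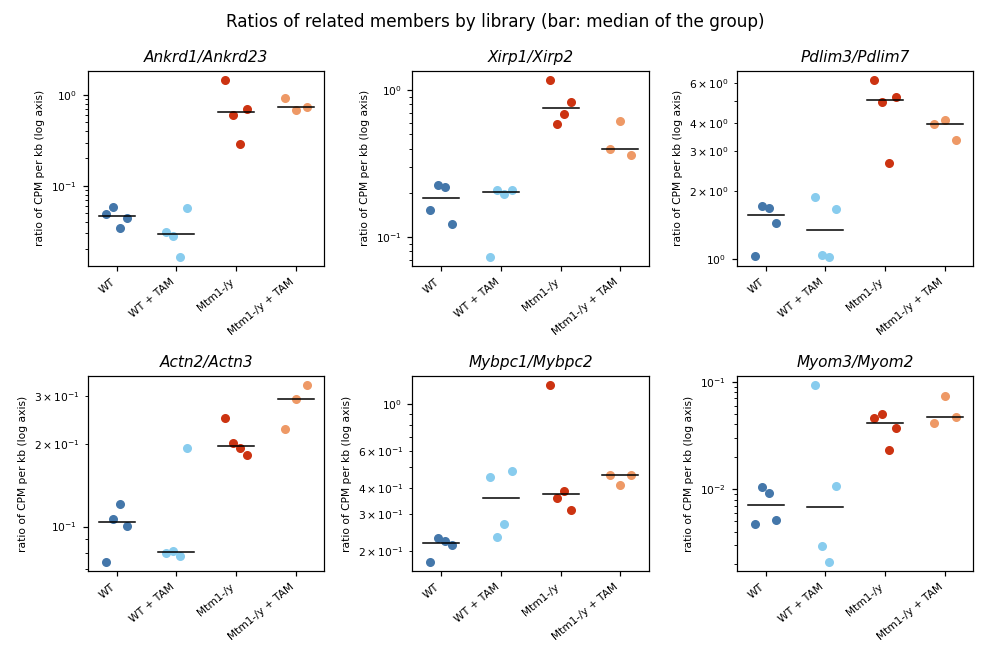
Ratio of CPM per kilobase of exon within paralogue pairs on a log axis, with 1 point per library. For Ankrd1 relative to Ankrd23, Mtm1-/y libraries lie at 0.291 to 1.48 and WT libraries at 0.0346 to 0.0589, and the counts of Ankrd23 are uncertain because its exons overlap Gm42417.

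Denervation-responsive markers and markers of developing or regenerating fibres moved with the genotype. The 7 denervation-responsive markers summed to 80.1 to 87.5 CPM in WT, 102 to 111 CPM in WT + TAM, 224 to 438 CPM in Mtm1-/y and 280 to 406 CPM in Mtm1-/y + TAM, and 7 of 7 were called higher untreated and 6 of 7 treated. The 7 markers of developing or regenerating fibres summed to 42.5 to 56.5 CPM in WT, 40.4 to 70.1 CPM in WT + TAM, 132 to 267 CPM in Mtm1-/y and 180.1 to 249 CPM in Mtm1-/y + TAM, with the same counts of calls. The 8 slow fibre markers summed to 82.6 to 108 CPM in WT, 68.3 to 1377 CPM in WT + TAM, 109 to 140.0 CPM in Mtm1-/y and 120 to 266 CPM in Mtm1-/y + TAM, and Myl3 alone was called, lower, in each genotype comparison. In untreated mice 6 of these 8 had a positive log2 fold change (median 0.69), and 5 of 8 lay above WT in all Mtm1-/y libraries, among them Tnni1 (1.58 to 2.52 CPM in WT and 11.7 to 17.3 CPM in Mtm1-/y, adjusted p = 0.0656). In treated mice 1 of the 8 was positive and 7 were negative (median -0.86), with the sum of 1377 CPM in WT + TAM replicate 1. The 6 skeletal muscle markers summed to 154543 to 211767 CPM in WT, 139606 to 174635 CPM in WT + TAM, 117640 to 161254 CPM in Mtm1-/y and 130963 to 132993 CPM in Mtm1-/y + TAM, with 2 of 6 called lower untreated and 0 treated (2 at an unadjusted p under 0.05). Both satellite cell markers together summed to 6.17 to 9.68 CPM in libraries with Mtm1 and 1.70 to 3.48 CPM in libraries without it, and 1 of 2 was called lower in each comparison. Of the 3 endothelial markers, 3 were called lower untreated and 2 treated. The part of these markers in the changes of the scaffold genes was not tested.

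A further list of 40 Z-disc, M-band and thin filament genes outside the 39 was counted alongside. Of its 39 tested genes, 21 were called in untreated mice (12 higher, 9 lower) and 21 in treated mice (11 higher, 10 lower), and 0 in either tamoxifen comparison or the interaction. Among all tested genes 30.4% were called untreated and 20.1% treated. The 39 genes described above had 19 calls untreated and 12 treated, fewer than this further list. Hspb7 (1.83 ± 0.40) and Hspb8 (1.55 ± 0.18), small heat shock proteins of the filamin and Bag3 repair system, and Pgm5 (1.39 ± 0.18), a Xin partner at muscle ends, had the highest called log2 fold changes in Mtm1-/y. Fblim1 (-1.91 ± 0.28), Kbtbd13 (-1.73 ± 0.27) and Sorbs2 (-0.98 ± 0.18) had the lowest.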

How the data were processed

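RNA was measured by stranded mRNA sequencing of 15 libraries. The authors deposited whole-number read counts per gene. HTSeq 0.6.1p1, STAR 2.5.3a, Bowtie2 2.2.8 and cutadapt 1.10, with the mouse builds mm10 and GRCm38, are listed without roles in the notes the submitters gave on processing. Neither the annotation release nor the strand setting was given in the sources used here.

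Counts were filtered with filterByExpr (minimum count 10), scaled by TMM and fitted across 15 libraries with the quasi-likelihood test of edgeR 4.0.16 (R 4.3.3), with 11 residual degrees of freedom and Benjamini-Hochberg adjustment over all tested genes. The ± values of log2 fold changes are standard errors. CPM values are scaled by TMM. The script was checked on simulated data. Alternatives were RLE and upper-quartile scaling, no filter, a minimum count of 50, limma-voom (limma 3.58.1), DESeq2 1.42.0, a fold threshold, a replicate block, and leaving out each library or both libraries that stood apart. The common biological coefficient of variation was 20.8%, and replicates differed by more than sampling noise (chi-square per degree of freedom of at least 10.5).

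The genes, lists and marker sets were chosen with earlier results of these data known. Library values are given for the called genes of Mtm1-/y against WT that had the 6 largest rises and the 6 largest falls, and each role group held at least 1 of these. A gene called for tamoxifen or the interaction would have been added, and none was. Same-numbered libraries of different groups had correlations of their deviations from -0.113 to 0.306 over 21 pairs, of which 6 passed 0.1. Numbers were not taken as pairs. Differently numbered libraries were not compared, so these values cannot exclude pairing. Exons of 12 of the 39 genes overlap another annotated gene.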

Additional observations from a re-analysis of the deposited data

Results flagged for a closer look

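In groups of 4 libraries, the gap of the highest or lowest library to its neighbour was divided by the range of the group, and 6 of 117 group and gene combinations passed the 95% limit, where chance gives about 1 in 20. Mybpc2 in Mtm1-/y replicate 1 lay far below the other libraries of its group (0.844 of the range). Synpo2 in Mtm1-/y replicate 3 lay far above its group (0.907). In WT replicate 1, Fhl1 (0.844) and Mybph (0.874) lay far below the other WT libraries. In WT replicate 4, Pdlim5 (0.89) and Tmod4 (0.851) lay far below theirs.

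For Capn3 and Xirp2, every tamoxifen library lay on one side of the untreated mean in WT and on the other side in Mtm1-/y. The difference between the tamoxifen effects was 0.41 ± 0.20 on the log2 scale for Capn3 (edgeR, adjusted p = 0.49) and 0.48 ± 0.27 for Xirp2 (edgeR, adjusted p = 0.537), and neither passed the test.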

How the results depend on the processing

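The main fit called 19 genes in Mtm1-/y against WT. Other fits called totals of 19 (RLE), 18 (upper quartile), 15 (no filter) and 20 (stricter filter). Further totals were 20 (limma-voom), 20 (DESeq2) and 19 (both libraries that stood apart left out). In Mtm1-/y + TAM against WT + TAM the main fit called 12. There the totals, in the same order, were 12, 12, 10, 13, 13, 14 and 14. These totals did not always hold the same genes. Synpo2 lost its untreated call with RLE, and both Myoz2 and Synpo2 lost theirs with both libraries left out. Fhl1 lost its treated call with both libraries left out. With a log2 fold change over 1 required as well, 7 and 5 were called. Leaving out 1 library at a time gave 12 to 19 untreated, lowest without WT replicate 1, and 6 to 13 treated, lowest without Mtm1-/y + TAM replicate 2. Without WT replicate 1, Capzb, Flnc, Myom3, Myoz2, Nrap, Pdlim7 and Synpo2 were lost. With the replicate block, 16 and 12 genes were called, and both tamoxifen comparisons and the interaction stayed at 0, as in all other alternatives. The causes were not tested.

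Over 192 alternative fits of the 12 genes described library by library, the call held in 165, was lost in 27 and never changed direction. Ankrd1, Lmod2, Fhl2, Xirp1, Mybpc2, Capn3, Ankrd23 and Ttn kept their call in all of theirs. Over all genes, WT + TAM against WT called 48 with edgeR, 298 with DESeq2, 347 without both libraries that stood apart and 11 without WT replicate 1. The interaction called 0 with edgeR, 74 with DESeq2 and 14 without both libraries, and Mtm1-/y + TAM against Mtm1-/y called 2 with edgeR and 4 with DESeq2. Mtm1-/y + TAM against WT + TAM went from 3121 to 1656 without Mtm1-/y + TAM replicate 2. Depth limits Fhl2 most, with 18 to 44 counts per WT library.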
